A study of Mus musculus with 9 samples.

Results

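The BCL2 family decides whether a cell opens its mitochondria and dies, and 10 of its genes were followed here in BV2 cells, an immortalized mouse microglial line, treated with silica-coated magnetic nanoparticles. The genes were Bcl2, Bcl2l1, Mcl1, Bax, Bak1, Bid, Bad, Bcl2l11, Bbc3 and Pmaip1, found by name as 10 of the 40993 genes in the deposited expression table. All 10 passed the filter on low values, a mean of at least 1 FPKM (fragments counted per kilobase of transcript and scaled to the mapped fragments of the library), as did 11161 genes in all. None of the 10 passed the test across all genes at either dose. Of all genes tested, 2.11% passed at the higher dose and 0% at the lower, each against control, so 0 of 10 is near those shares. With a pseudocount of 1, the 95% confidence interval of every gene stayed within 1.5-fold in each comparison. With a pseudocount of 0.1, that of Bbc3 went past 1.5-fold in both comparisons with the higher dose. Intervals under other settings are not given here.

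The nanoparticles, MNPs@SiO2(RITC), enclose cobalt ferrite in silica labelled with the dye rhodamine B isothiocyanate. The 9 RNA-seq libraries formed 3 groups of 3, namely non-treated control cells, cells given 10 µg/ml of the particles for 12 h (labelled low dose, 0.01 µg/µl) and cells given 100 µg/ml for 12 h (labelled high dose, 0.1 µg/µl). Every group was the same line, with no genetic change named in the labels, and a cell line is a limited model of microglia in the brain. The comparisons ask how the transcriptome of these cells differs between each dose and the non-treated cells, and between the doses.

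Proteins of the family share short stretches called BCL2 homology (BH) domains. The antiapoptotic proteins BCL2, BCL-XL (from Bcl2l1) and MCL1 hold the pore-forming proteins BAX and BAK (from Bak1) in check. The BH3-only proteins BID, BAD, BIM (from Bcl2l11), PUMA (from Bbc3) and NOXA (from Pmaip1) carry the BH3 domain alone, by which they bind and neutralize the antiapoptotic proteins, and some of them activate BAX and BAK directly. Active BAX and BAK open the outer mitochondrial membrane, cytochrome c leaves, and caspases are switched on. Much of this control acts on the proteins, by cleavage, phosphorylation and degradation, and is not seen in RNA.

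The BH3 domain is what members of all 3 classes have in common, and its core shows how far the genes have diverged in sequence. The lines below give 48 bases of coding sequence around that core, 5′ to 3′ in the sense of each gene, with capitals for the leucine codon and for the pair of codons that follows it after 3 others, glycine or a substitute and then aspartate.
Bcl2: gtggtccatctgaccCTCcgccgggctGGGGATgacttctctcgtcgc
Bcl2l1: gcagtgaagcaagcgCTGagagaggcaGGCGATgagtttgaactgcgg
Mcl1: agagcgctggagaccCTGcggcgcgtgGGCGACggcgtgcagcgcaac
Bax: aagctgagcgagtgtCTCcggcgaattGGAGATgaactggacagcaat
Bak1: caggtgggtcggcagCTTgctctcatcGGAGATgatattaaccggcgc
Bid: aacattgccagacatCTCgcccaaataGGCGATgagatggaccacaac
Bad: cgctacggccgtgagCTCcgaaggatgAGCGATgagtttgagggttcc
Bcl2l11: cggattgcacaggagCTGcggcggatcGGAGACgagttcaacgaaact
Bbc3: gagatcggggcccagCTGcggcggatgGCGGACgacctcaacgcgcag

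These stretches were read from transcripts of GENCODE M21 on GRCm38. They lie at chr1:106712569-106712616 on the minus strand for Bcl2 (coding part of exon 1), chr2:152829691-152829738 on the minus strand for Bcl2l1 (exon 2) and chr3:95659421-95659468 on the plus strand for Mcl1 (exon 1). Those of the pore-forming genes are at chr7:45465991-45466038 for Bax (exon 3) and chr17:27022525-27022572 for Bak1 (exon 4), both on the minus strand. Among the BH3-only genes they are at chr6:120897283-120897330 on the minus strand for Bid (exon 4), and on the plus strand at chr19:6950777-6950824 for Bad (exon 3), chr2:128147135-128147182 for Bcl2l11 (exon 3) and chr7:16313758-16313805 for Bbc3 (exon 3). Pmaip1, whose coding sequence held 2 matches to the search given below, both with a glycine codon, is not shown here. The glycine codon is kept in 7 of the 9 genes shown, whereas Bad has AGC, a serine codon, and Bbc3 has GCG, an alanine codon. The search read each coding sequence in frame for a leucine codon, any 3 codons, a glycine codon and an aspartate codon, and 13.3% of 21562 mouse coding sequences held such a match, or 34.0% with alanine or serine allowed for glycine. Each gene shown had 1 match, which for Bad and Bbc3 was found only with alanine or serine allowed. A match of this kind is common and is no sign of a BH3 domain by itself.

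FPKM divides by transcript length, so levels could be compared between genes on that scale. Mcl1 had the highest level, with a mean of 213 FPKM over the 9 libraries, above 97.0% of the genes tested. Bax (99.7 FPKM) and Bak1 (73.8 FPKM) followed, then Bid (38.5 FPKM), Bcl2l1 (29.2 FPKM), Bcl2l11 (26.5 FPKM), Pmaip1 (17.9 FPKM) and Bad (11.7 FPKM). Bbc3 (4.58 FPKM) and Bcl2 (4.22 FPKM) were the lowest, with Bcl2 above only 16.5% of the genes tested. The order of neighbours held in 9 of 9 libraries, except for Bcl2l1 above Bcl2l11 (8 of 9) and Bbc3 above Bcl2 (7 of 9). The ranges of those pairs over the libraries overlapped, and the order of neighbours was not tested. The range of Bax met that of Bak1 as well, although Bax was the higher in each library, and all other neighbours had separate ranges. Within a gene, the highest library stood between 1.19 times (Bcl2l1) and 1.71 times (Bbc3) the lowest. The libraries held about 13.0 to 16.1 M fragments (M, mega) as estimated from the steps between low values, which made Bbc3 a gene of about 36 to 73 fragments per library and Mcl1 one of about 5148 to 8468.

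**Figure D1:**
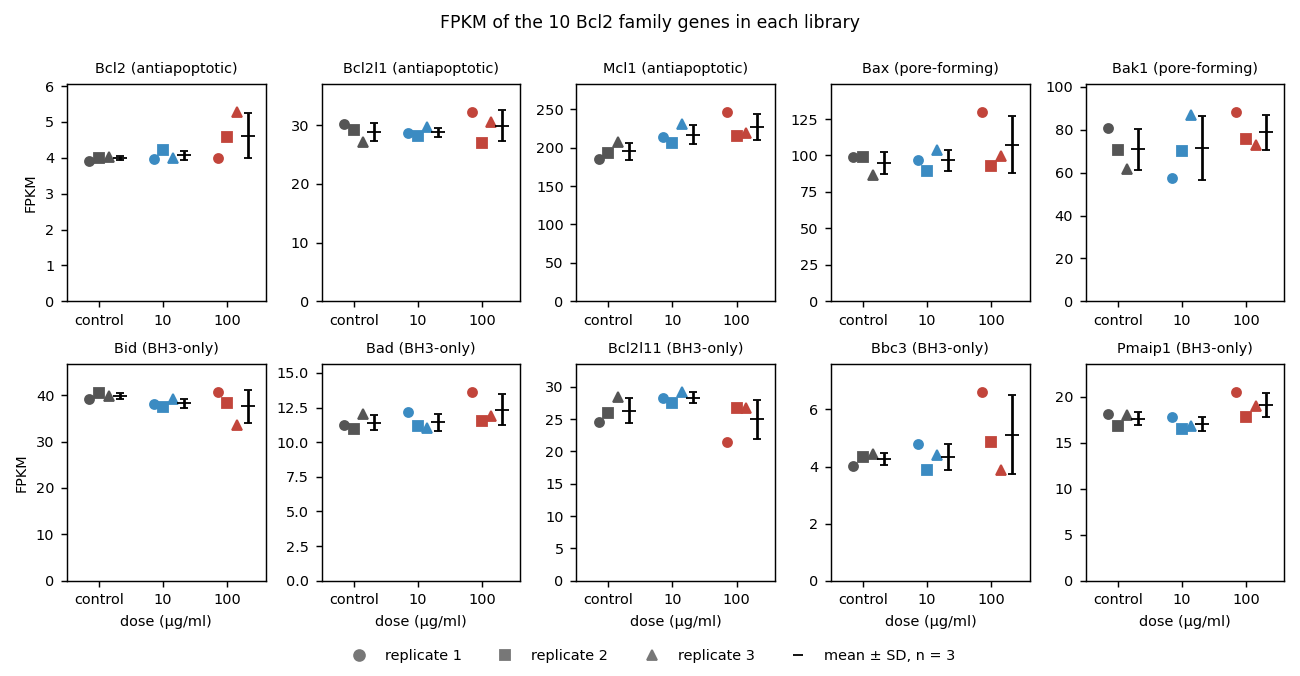
FPKM of each gene (vertical axes, each from 0) in the control, 10 and 100 µg/ml libraries, with replicates as circles, squares and triangles and bars for the mean ± SD (n = 3). The Mcl1 values at 100 µg/ml, 215 to 246 FPKM, lie above all control values, while the groups of most other genes overlap at both doses.

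Replicate 1 at 100 µg/ml stood apart from the other libraries and bears on most of the values that follow. It held the highest level of the 9 libraries for 8 of the 10 genes, the exceptions being Bcl2, highest in replicate 3 at that dose, and Bcl2l11, which had its lowest level there. The share of all genes tested that were highest in replicate 1 was not counted, so this is no trait of the 10 genes. The median deviation of the 10 genes from the control mean was 0.223 on the log2 scale in that library, against 0.019 and 0.066 in replicates 2 and 3 at the same dose. Across all genes it also lay farthest from the other libraries of its group, with an SD of the log2 difference of 0.423 against 0.316 to 0.393 in the other 8 libraries. Its deviations across 11076 genes had a Spearman rho of -0.341 with transcript length and 0.166 with GC content, where replicates 2 and 3 at that dose had 0.271 and 0.251 with length. These rho values describe genes that share a library and carry no p. The part of length or GC content in the results was not tested beyond the correction given with the alternatives.

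**Figure D2:**
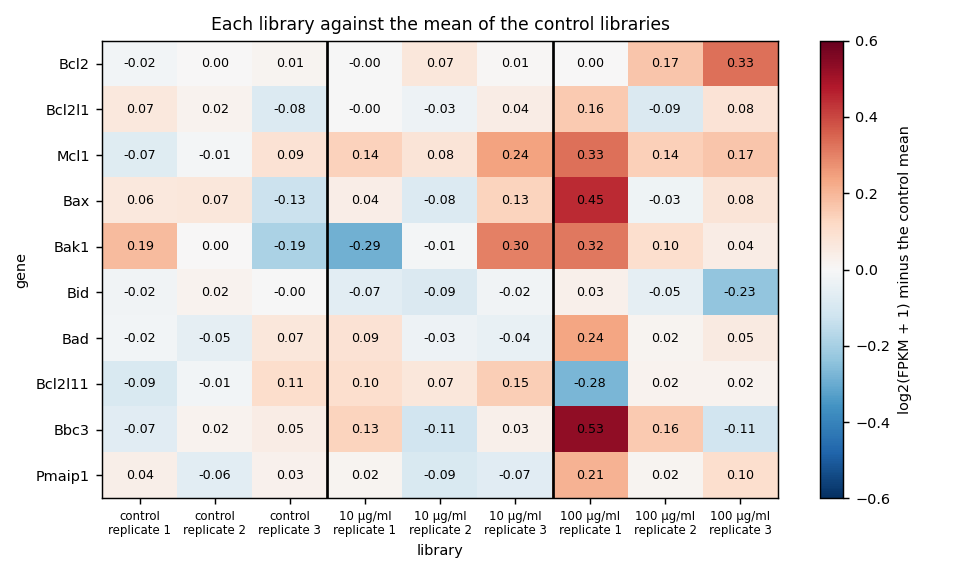
Colour and number give log2(FPKM + 1) of each gene (rows) in each library (columns) minus its mean in the control libraries. The column of replicate 1 at 100 µg/ml holds 0.53 for Bbc3, 0.45 for Bax and 0.33 for Mcl1, and -0.28 for Bcl2l11.

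Among the antiapoptotic genes of the 10, Mcl1 was the only one whose libraries at 100 µg/ml did not overlap those of control cells. MCL1 is a short-lived protein that many myeloid cells need for survival. The gene, ENSMUSG00000038612 at 3:95658721-95663176 on the plus strand, was at 185, 194 and 207 FPKM in control replicates 1 to 3, at 215, 206 and 231 FPKM at 10 µg/ml and at 246, 215 and 219 FPKM at 100 µg/ml. Every library at 100 µg/ml was above every control library, whereas 1 library at 10 µg/ml, replicate 2, fell within the control range. The mean at 100 µg/ml was 1.16 times the control mean, a difference of 0.21 on the log2(FPKM + 1) scale (SE 0.072, 95% confidence interval 0.05 to 0.377). It was under 0.05 before adjustment over all genes and not after (limma, adjusted p = 0.156). Without replicate 1 at 100 µg/ml the difference was 0.15 (adjusted p = 0.191). At 10 µg/ml the difference from control was 0.15 (limma, adjusted p = 1), and between the doses it was 0.061 (adjusted p = 0.752). In these bulk samples a change in the share of cells that express a gene and a change in RNA per cell cannot be told apart.

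Bcl2l1 encodes BCL-XL, which guards the outer membrane beside MCL1, and had the narrowest range of the 10 genes. The gene, ENSMUSG00000007659 at 2:152780668-152831728 on the minus strand, was at 30.2, 29.2 and 27.1 FPKM in control cells, 28.7, 28.2 and 29.7 FPKM at 10 µg/ml and 32.2, 27.0 and 30.5 FPKM at 100 µg/ml. The groups overlapped throughout. The difference from control was 0.05 at 100 µg/ml (95% confidence interval -0.113 to 0.214, limma adjusted p = 0.75) and turned to -0.003 without replicate 1 at that dose.

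Bcl2, the founding member of the family (ENSMUSG00000057329 at 1:106538178-106714274, minus strand), was at 3.92, 3.99 and 4.04 FPKM in control cells and at 3.98, 4.22 and 4.003 FPKM at 10 µg/ml. At 100 µg/ml it was at 3.997, 4.59 and 5.27 FPKM, the last of which was the highest of the 9 libraries. Replicate 1 at that dose lay among the control libraries, so the groups overlapped. Its difference at 100 µg/ml was 0.17 (SE 0.093, 95% confidence interval -0.044 to 0.377, limma adjusted p = 0.371), 0.25 without replicate 1 at that dose (adjusted p = 0.112) and 0.085 without replicate 3 (adjusted p = 0.651).

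The pore-forming genes showed no difference beyond their spread at either dose. Bax (ENSMUSG00000003873 at 7:45461695-45466898, minus strand) encodes a protein that moves from the cytosol to the mitochondria when activated. It was at 98.8, 99.3 and 86.3 FPKM in control cells, 97.1, 89.4 and 103.8 FPKM at 10 µg/ml and 129.5, 92.7 and 99.9 FPKM at 100 µg/ml. Replicate 1 at 100 µg/ml was far above the rest, and the other libraries of all 3 groups overlapped. The difference at 100 µg/ml was 0.17 (SE 0.121, limma adjusted p = 0.499), and 0.025 without that library (adjusted p = 0.889), the lowest of the leave-one-out fits, which reached 0.264.

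Bak1 (ENSMUSG00000057789 at 17:27019810-27029009, minus strand) encodes BAK, which sits in the outer mitochondrial membrane. Its levels were 80.6, 70.6 and 61.7 FPKM in control cells, 57.6, 70.0 and 87.1 FPKM at 10 µg/ml and 88.1, 75.7 and 72.7 FPKM at 100 µg/ml. The spread within groups was wide, and the 10 µg/ml libraries held both the lowest value of all 9 and one of the highest. Bak1 had the largest standard error of the 10 genes, 0.153, with a difference of 0.15 at 100 µg/ml (95% confidence interval -0.193 to 0.5, limma adjusted p = 0.632). That difference was 0.072 without replicate 1 at 100 µg/ml, and it ran from 0.058 to 0.25 over all fits that omitted a library, the ends being those without control replicates 3 and 1. The whole gene is overlapped on the other strand by Ggnbp1, which had a mean of 0.503 FPKM.

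Of the 5 BH3-only genes, Bid and Bcl2l11 were each lower in the mean at 100 µg/ml and Bad, Bbc3 and Pmaip1 higher, all with differences that did not pass the test. Bid (ENSMUSG00000004446 at 6:120891930-120916853, minus strand) links death receptors to mitochondria after its cleavage by caspase 8. It was at 39.2, 40.5 and 39.8 FPKM in control cells, 38.0, 37.5 and 39.2 FPKM at 10 µg/ml and 40.7, 38.4 and 33.7 FPKM at 100 µg/ml. All libraries at 10 µg/ml lay below the control libraries, by a margin under 1 FPKM, while those at 100 µg/ml spanned the values of both other groups. Its difference from control was -0.058 at 10 µg/ml (SE 0.068, limma adjusted p = 1) and -0.086 at 100 µg/ml (adjusted p = 0.539). The latter was -0.046 with the correction for GC content and transcript length, -0.14 when replicate 1 at 100 µg/ml was omitted and -0.011 without replicate 3. Bid shares 913 bases with Bcl2l13 on the other strand, a gene with a mean of 13.3 FPKM.

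Bcl2l11 encodes BIM, which binds all antiapoptotic members of the family and mediates death after growth factor withdrawal. The gene (ENSMUSG00000027381 at 2:128126038-128162547, plus strand) was at 24.6, 26.0 and 28.4 FPKM in control cells, 28.2, 27.6 and 29.2 FPKM at 10 µg/ml and 21.5, 26.7 and 26.7 FPKM at 100 µg/ml. Levels at 100 µg/ml were below all those at 10 µg/ml, and the control libraries reached into both ranges. Between the doses the difference was -0.18 (SE 0.089, 95% confidence interval -0.384 to 0.02, limma adjusted p = 0.399), and -0.083 without replicate 1 at 100 µg/ml (adjusted p = 0.534). Against control it was 0.10 at the low dose and -0.078 at the high dose, and the latter turned to 0.021 without that library.

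Pmaip1 and Bbc3 are both known targets of p53. Pmaip1 encodes NOXA, which binds MCL1 and promotes its degradation (ENSMUSG00000024521 at 18:66458604-66465550, plus strand). It was at 18.1, 16.8 and 17.97 FPKM in control cells, 17.8, 16.4 and 16.8 FPKM at 10 µg/ml and 20.5, 17.8 and 19.0 FPKM at 100 µg/ml. The 100 µg/ml libraries tended to the upper end, but replicate 2 was lower than the highest library at 10 µg/ml. Of the 10 genes, Pmaip1 had the smallest p between the doses, with a difference of 0.16 (SE 0.066, 95% confidence interval 0.008 to 0.306, limma adjusted p = 0.329), and 0.11 without replicate 1 at 100 µg/ml (adjusted p = 0.392).

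Bbc3 encodes PUMA, which binds all antiapoptotic members (ENSMUSG00000002083 at 7:16309616-16318205, plus strand). Its levels were 4.03, 4.35 and 4.44 FPKM in control cells, 4.78, 3.87 and 4.39 FPKM at 10 µg/ml and 6.61, 4.88 and 3.87 FPKM at 100 µg/ml. The libraries at 100 µg/ml included both the highest and the lowest value of all 9. Its mean was 1.20 times control at that dose, with a difference of 0.19 (SE 0.151, 95% confidence interval -0.152 to 0.534, limma adjusted p = 0.537) that was 0.021 without replicate 1 and reached 0.343 in the leave-one-out fits. With the correction for GC content and transcript length it was 0.019 (adjusted p = 0.945).

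Bad (ENSMUSG00000024959 at 19:6941861-6951898, plus strand) encodes a protein that survival kinases keep phosphorylated and bound in the cytosol. It was at 11.25, 10.96 and 12.01 FPKM in control cells, 12.15, 11.13 and 11.03 FPKM at 10 µg/ml and 13.6, 11.5 and 11.9 FPKM at 100 µg/ml. Only replicate 1 at 100 µg/ml lay outside the range of the other groups, and the difference at that dose was 0.10 (SE 0.076, limma adjusted p = 0.504), or 0.036 without that library. The gene shares 590 bases with Gpr137 on the other strand, which had a mean of 7.90 FPKM.

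Read together against control at 100 µg/ml, 0 of the 10 genes passed an adjusted p of 0.05 in limma, where 2.11% of all genes tested did (236 genes). At an unadjusted p under 0.05 the count was 1, Mcl1, against 19.4% of all genes. Groups that did not overlap were found for 1 of the 10 genes, Mcl1 again, against 23.8% of all genes. The difference was above 0 for 8 of the 10, with a median of 0.13 beside -0.002 over all genes. Without replicate 1 at that dose the median was 0.03, with 8 of the 10 above 0.

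At 10 µg/ml against control, limma passed 0 of the 10 genes and 0% of all genes tested. No member had an unadjusted p under 0.05, compared with 3.28% of all genes. The non-overlapping groups were those of Bid alone, where 10.7% of all genes did not overlap. The median difference of the 10 genes was 0.011, against 0 over all genes, and their bounds ran from -0.346 (Bak1) to 0.36 (Bbc3).

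Between 100 and 10 µg/ml, limma passed 0 of the 10 genes, while 0.851% of all genes tested passed (95 genes). Pmaip1 was the 1 gene with an unadjusted p under 0.05, against 14.3% of all genes. Bcl2l11 was the 1 gene whose groups did not overlap, against 19.4% of all genes. Both comparisons with 100 µg/ml share its 3 libraries, so a member's values in them are not independent. The widest bounds in the 3 comparisons were 0.534 for Bbc3 at 100 µg/ml, or 1.45-fold, and -0.384 for Bcl2l11 between the doses, or 0.766-fold.

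**Figure D3:**
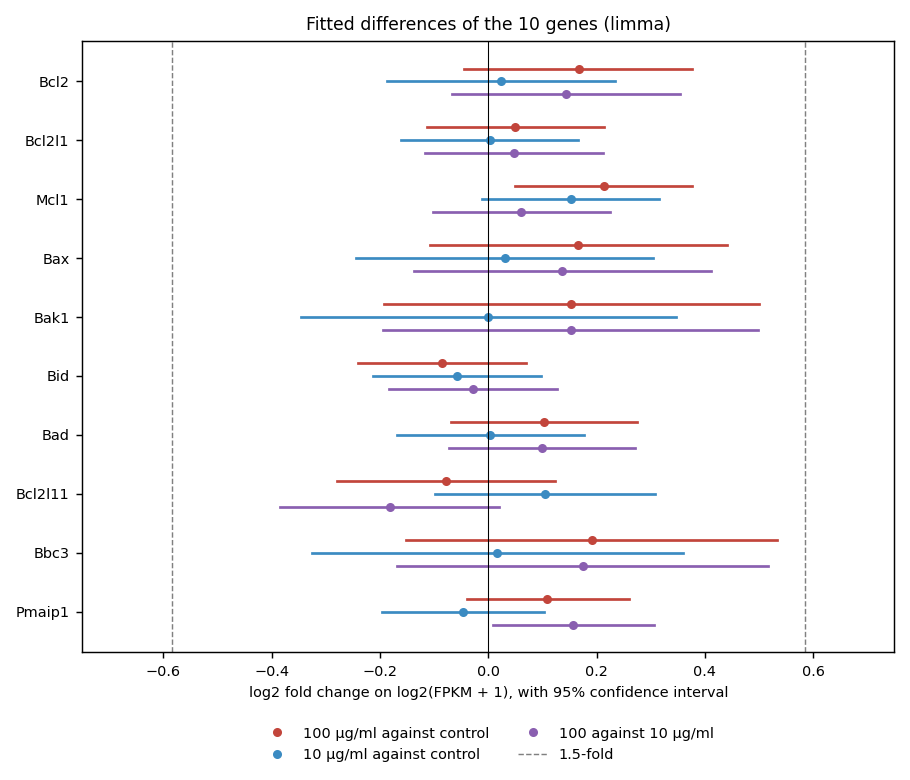
Fitted log2 fold change on log2(FPKM + 1) (horizontal axis) for each gene with its 95% confidence interval, in red for 100 µg/ml against control, blue for 10 µg/ml against control and purple for 100 against 10 µg/ml. No interval reaches the dashed lines at 1.5-fold, and the intervals that leave out 0 are those of Mcl1 at 100 µg/ml against control and of Pmaip1 between the doses.

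The summed FPKM by role gives the balance of the 10 genes at the RNA level, as a description with no test. Bcl2l2, a further antiapoptotic gene given below, is not in the sums. It had a mean of 24.3 FPKM in control cells and 18.1 FPKM at 100 µg/ml. The antiapoptotic sum was 219, 227 and 238 FPKM in control replicates 1 to 3, 247, 238 and 265 FPKM at 10 µg/ml and 282, 247 and 255 FPKM at 100 µg/ml. All 100 µg/ml libraries were above the control libraries, and Mcl1 made up 85.6% ± 1.25 of the sum in control cells (SD, n = 3) and 86.8% ± 0.708 at 100 µg/ml. Bax and Bak1 together came to 166 ± 16.2 FPKM in control cells, 168 ± 19.6 FPKM at 10 µg/ml and 186 ± 27.3 FPKM at 100 µg/ml, with overlapping groups. The BH3-only sum stayed at 99.4 ± 2.78, 99.3 ± 2.495 and 99.1 ± 3.96 FPKM in the same order. The ratio of the antiapoptotic to the pore-forming sum was 1.39 ± 0.201 in control cells, 1.49 ± 0.106 at 10 µg/ml and 1.41 ± 0.101 at 100 µg/ml, so the group means differed by less than the spread among control libraries.

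**Figure D4:**
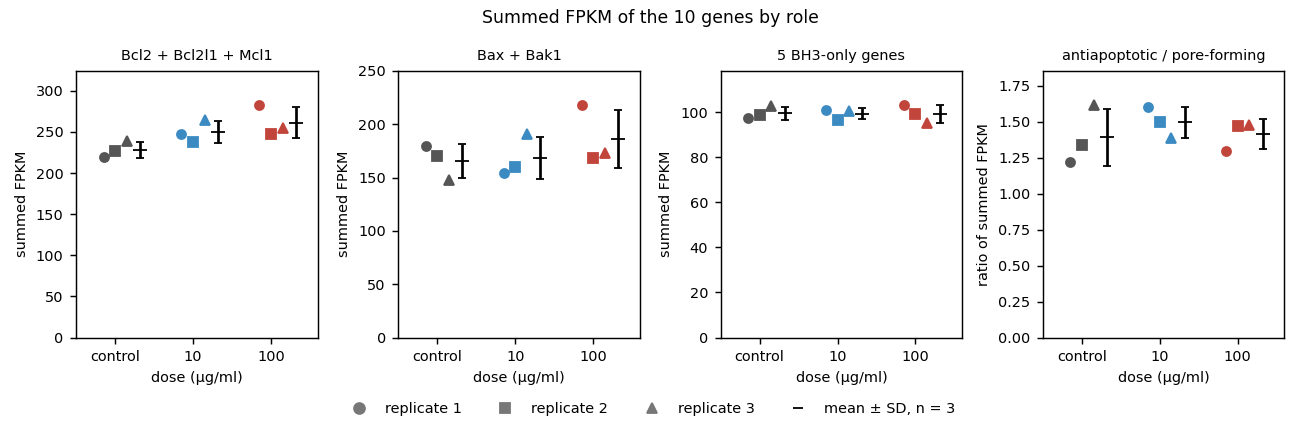
Summed FPKM of the antiapoptotic, pore-forming and BH3-only genes and the ratio of the first to the second sum (vertical axes from 0) by dose, with 1 symbol per library and bars for the mean ± SD (n = 3). The BH3-only sums of the groups differ by under 1 FPKM in the mean, and the ratio runs from 1.22 to 1.61 among the control libraries alone.

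Across the 9 libraries, some members went up and down together. The highest Pearson correlations of log2(FPKM + 1) were those of Bad with Pmaip1 (0.89) and of Bcl2l1 with Bax (0.88), and the lowest were those of Bcl2 with Bid (-0.873) and of Bax with Bcl2l11 (-0.766). These values describe 9 libraries in which replicate 1 at 100 µg/ml is extreme for most of the genes, and carry no p. Mcl1 had the largest F statistic over the 3 groups among the 10 genes (limma, adjusted p = 0.31). The genes most like it in pattern, among 9021 genes whose mean reached 5 FPKM, were Ubtd1 (r = 0.974), Impdh2 (r = 0.969) and Itpa (r = 0.964). A total of 38 of those genes had r above 0.9, with a median r of 0.036 over all of them.

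Genes that act beside, above and below the 10 members were counted from lists of genes with known roles. Of 16 further BCL2 family genes, 7 reached a mean of 1 FPKM and 1 passed at 100 µg/ml, where 2.11% of all genes tested did. This was Bcl2l2, which encodes the antiapoptotic protein BCL-W (ENSMUSG00000089682). It was at 26.1, 23.7 and 23.2 FPKM in control cells, 24.5, 22.9 and 23.2 FPKM at 10 µg/ml and 15.9, 19.7 and 18.8 FPKM at 100 µg/ml. The libraries at 100 µg/ml were all below both other groups, with a mean of 18.1 ± 2.02 against 24.3 ± 1.56 FPKM in control cells (SD, n = 3) and a difference of -0.41 (SE 0.084, limma adjusted p = 0.048). This call is at the edge of the threshold, since of the 9 leave-one-out fits it held in 1, that without replicate 1 at 100 µg/ml, and the adjusted p ran from 0.0365 to 0.173. The highest of the list were Bnip3 (75.4 FPKM) and Bnip3l (35.6 FPKM), mitophagy receptors, and Bcl2a1c was listed at 0 in all libraries. Bcl2l2 overlaps Gm20521 on the same strand, which had a mean of 0.557 FPKM. The list's median difference was -0.057, beside -0.002 over all genes.

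Downstream of mitochondria, 20 of 21 genes were expressed at that level and 0 passed in any comparison, with 3 genes at an unadjusted p under 0.05 and a median difference of 0.004 at 100 µg/ml, beside 19.4% and -0.002 for all genes tested. The most abundant were the outer membrane channels Vdac2 (258 FPKM) and Vdac1 (187 FPKM). Vdac2, whose protein also binds BAK, was at 246 ± 4.11 FPKM in control cells and 281 ± 19.7 FPKM at 100 µg/ml (SD, n = 3), a difference of 0.19 that did not pass (limma adjusted p = 0.159). In the death receptor list 9 of 13 genes were tested and 0 passed, with 2 at an unadjusted p under 0.05 and a median difference of 0.047 at 100 µg/ml. These 2 of 9 are near the 19.4% of all genes tested. Its most abundant genes were Tnfrsf1a, the receptor of TNF, at 34.8 FPKM and Ripk1, a kinase of its signalling complex, at 24.2 FPKM, while the ligand genes Fasl and Tnfsf10 were listed at 0 in all libraries.

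Among 15 tested transcription factors and regulators known to act on member genes, 1 passed at 100 µg/ml, 5 had an unadjusted p under 0.05 and the median difference was -0.10. Over all genes tested, 2.11% passed, 19.4% had an unadjusted p under 0.05 and the median was -0.002. Rela, the p65 subunit of NF-kB, was at 20.9, 20.8 and 22.1 FPKM in control cells, 22.5, 22.7 and 24.1 FPKM at 10 µg/ml and 26.2, 25.7 and 25.4 FPKM at 100 µg/ml. The 3 groups did not overlap, and the rise at 100 µg/ml was 0.27 (SE 0.051, limma adjusted p = 0.037). It too held in 1 of the 9 leave-one-out fits, when replicate 1 at 100 µg/ml was omitted, and its adjusted p there lay between 0.0374 and 0.153. The most abundant of the list were Atf4 (191 FPKM), a stress response factor, and Trp53 (101 FPKM), which encodes p53 and was at 105 ± 2.65 FPKM in control cells and 97.2 ± 7.34 FPKM at 100 µg/ml (SD, n = 3, limma adjusted p = 0.378). Trp73 was the lowest, above 0 in 1 library.

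The kinases and phosphatases that act on members held the clearest difference of these lists. Pim2 encodes a kinase that phosphorylates and inactivates BAD. It was at 17.1, 18.9 and 18.3 FPKM in control cells, 17.5, 17.4 and 18.6 FPKM at 10 µg/ml and 8.37, 8.53 and 8.11 FPKM at 100 µg/ml. Each library at 100 µg/ml was far below all others, a fall of 1.03 on the log2 scale from control (fitted difference -1.03, SE 0.059, limma adjusted p = 0.000411) and a difference of -1.01 from 10 µg/ml (adjusted p = 0.000471). Both calls were kept in 9 of 9 leave-one-out fits. The other 14 tested genes of the list did not pass, among them the survival kinase gene Akt1 (127 FPKM). At an unadjusted p under 0.05 the list held 4 of 15 genes, against 19.4% of all genes, and its median difference was -0.019.

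Of 8 tested genes of the ubiquitin system and partners that bind or degrade members, 0 passed, with 3 at an unadjusted p under 0.05 and a median difference of -0.105, beside 19.4% and -0.002 for all genes tested. The most abundant, Huwe1, a ubiquitin ligase of MCL1, was at 124, 128 and 128 FPKM in control cells and at 70.2, 141 and 129 FPKM at 100 µg/ml. Replicate 1 at that dose was the low one, and the difference of -0.22 did not pass (limma adjusted p = 0.634). Bag6 followed at 116 FPKM and Park2 was the lowest at 0.616 FPKM. At 10 µg/ml against control 0 of the 74 tested genes of these 6 lists passed in limma, with 1 at an unadjusted p under 0.05, where 0% and 3.28% of all genes did. Between the doses 1 of the 74 passed, Pim2, against 0.851% of all genes.

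**Figure D5:**
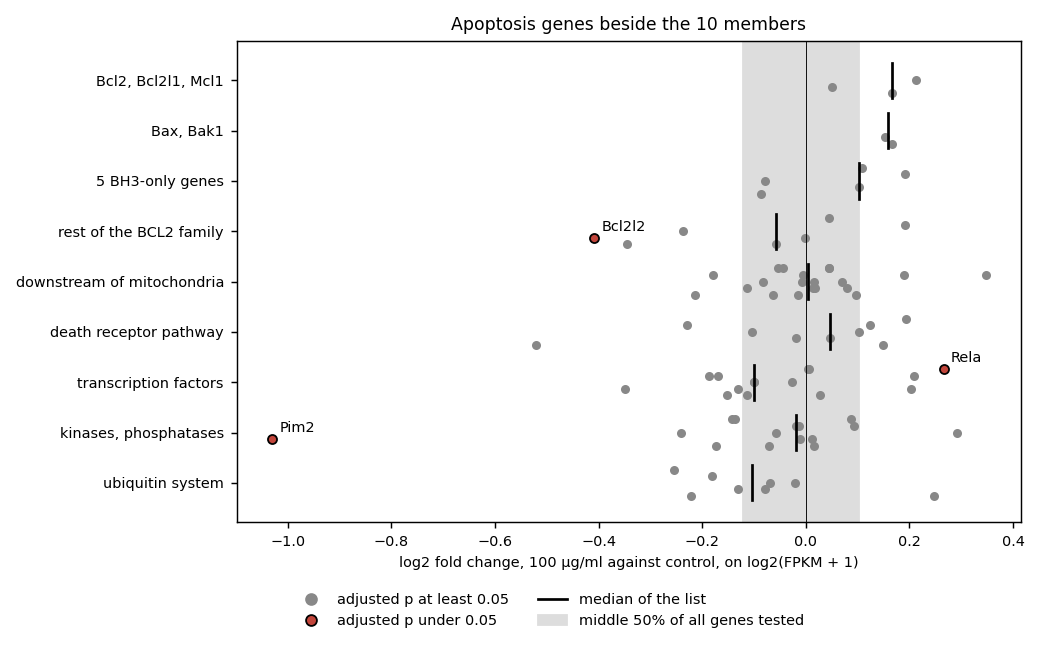
Log2 fold change on log2(FPKM + 1) at 100 µg/ml against control (horizontal axis) for each tested gene, by list, with a line at the list's median and a grey band for the middle 50% of all genes tested. Red points passed an adjusted p of 0.05 and are Bcl2l2 at -0.41, Rela at 0.27 and Pim2 at -1.03.

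The markers of the cells themselves bear on how these values are read. Of 12 genes that mark microglia and macrophages, 10 reached a mean of 1 FPKM, led by Cd68 at 413 FPKM, while Cx3cr1 (0.037 FPKM) and P2ry12 (0.093 FPKM), markers of microglia in the brain, were near 0. Their summed level was 1467, 1409 and 1278 FPKM in control cells, 1315, 1286 and 1373 FPKM at 10 µg/ml and 1373, 1214 and 1204 FPKM at 100 µg/ml, with overlapping groups. At 100 µg/ml the fitted difference was below 0 for all 10 tested markers, with a median of -0.18. The part of this shift in the values of the 10 genes was not tested.

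Markers of other cells were near absent. Rbfox3, Snap25, Syt1 and Th of neurons, Col1a2, Dcn and Pdgfra of fibroblasts, Cd3e, Cd3g and Cd79a of T and B cells, Aqp4 of astrocytes, Mog of oligodendrocytes, and Ly6g and S100a9 of neutrophils were at 0 in every library. Other markers of these cells were low, with Map2 at 0.036 FPKM, Col1a1 at 0.004 FPKM and Gfap at 0.257 FPKM. S100a8, listed for neutrophils, was at 20.1 FPKM.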

How the data were processed

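The sources name a stranded kit at the step of RNA isolation and another kit for the adapters, after oligo(dT) selection, so whether the libraries kept strand is not clear. Per the labels and the study's methods, the authors aligned reads with TopHat and estimated the deposited FPKM with Cufflinks 2.1.1 on Ensembl release 77 (GRCm38), correcting for fragment bias and multiply mapped reads. FPKM holds no counts, so depth is approximate, and near-identical copies (Bcl2a1 genes, Cycs) are uncertain. The strand setting of the estimation is not given in the sources used here either, so genes overlapping on the other strand may share reads. Whether the 3 libraries of a group came from separate cultures is not stated, so p-values measure only the spread between these libraries.

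Samples were grouped by their labels. The 11161 genes whose mean reached 1 FPKM were tested on log2(FPKM + 1) with limma 3.58.1 in R 4.3.3, with 3 groups in one fit, the eBayes trend and Benjamini-Hochberg adjustment over all of them. Fold changes on this scale understate changes of low genes. The procedure was tested on simulated data. Other steps used numpy 2.4.6 and pandas 2.3.3 in Python 3.11.15. Gene coordinates are those of the deposited table, and lengths, GC content, exons and sequences are from GENCODE M21 (GRCm38). Cuffdiff was not repeated.

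The members and lists were chosen with earlier results of these data known. The naming rule covers all members, genes of each list that passed plus its 2 highest and its lowest by mean FPKM, markers at 0 and the most abundant of each type, and the 3 genes most like the member with the highest F statistic. A few genes that the rule covers are not reported here. Values of 2 near-absent microglia markers (Cx3cr1, P2ry12) were added after they were seen. Alternatives were a pseudocount of 0.1, no filter, a filter at 5 FPKM, median-of-ratios rescaling, quantile normalization, a replicate block, no trend, a loess correction for GC content and length (span 0.5), both together, a fit of the 6 libraries of each comparison alone, and each library left out in turn.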

Additional observations from a re-analysis of the deposited data

How the results depend on the processing

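No member passed an adjusted p of 0.05 under any of 19 alternatives (lowest 0.0861). Of 564 member values, 537 kept their direction, but many of these could not change. A changed filter, no trend, the replicate block alone and the fit of 6 libraries leave a fitted difference as it is. So does leaving out a library of the group that a comparison does not use. Against control at 100 µg/ml, 236 genes passed in all, against 372 with the GC and length correction, 106 with the replicate block, 22 with only the 6 libraries compared and 31 to 539 without a library (539 without replicate 1 at 100 µg/ml). Genes of the pathway lists went from 3 to 1, Pim2, with the GC and length correction, the replicate block, both together and the 6 libraries, to 2 with no filter or no trend, where Bcl2l2 lost its call (adjusted p of 0.08 and 0.0583), and to 1 to 4 without a library. Between the doses, 95 genes became 13 with the block, 42 with block and correction, 6 with the 6 libraries and 8 to 191 without a library. At 10 µg/ml, 0 became 4 without the filter, 1 with the 6 libraries and 0 to 2 without a library. With the GC and length correction the difference of Bbc3 at 100 µg/ml against control went from 0.191 to 0.019. At 10 µg/ml the sign changed for values near 0 with the GC and length correction, alone or with the block, to -0.011 for Bcl2l1, -0.000277 for Bax, -0.046 for Bak1, -0.0332 for Bad and -0.10 for Bbc3, and to -0.00214 for Bak1 with median-of-ratios rescaling. The causes were not tested. Without a library the values at 10 µg/ml ran from -0.037 to 0.038 for Bad, -0.149 to 0.145 for Bak1, -0.036 to 0.085 for Bax, -0.041 to 0.083 for Bbc3, -0.039 to 0.035 for Bcl2l1, -0.076 to 0.00608 for Bcl2l2 and -0.055 to 0.014 for Pim2. Those at 100 µg/ml against control ran from -0.00269 to 0.12 for Bcl2l1 and -0.127 to 0.021 for Bcl2l11, and between the doses from -0.005 to 0.234 for Bax, -0.00556 to 0.117 for Bcl2l1 and -0.086 to 0.047 for Bid. With a pseudocount of 0.1 the interval of Bbc3 reached 0.623 at 100 µg/ml against control and 0.603 between the doses, both past 1.5-fold. Deviations of same-numbered libraries correlated at -0.088 to 0.152 and others at -0.166 to 0.143. Between control and 100 µg/ml the same-numbered ones were at 0.152, 0.033 and 0.098 and the others at -0.166 to 0.105. With 3 libraries per group, these values cannot decide whether replicate numbers pair the libraries. The fit with the replicate block passed 0 members. Bbc3 rests on few fragments, about 36 to 73 per library by estimate, and their part in its SE of 0.151 was not tested. Bak1, with about 1687 to 2789 fragments, had an SE of 0.153.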
